A study of Mus musculus with 4 samples.

Results

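INT1 is an element of the joint locus of the T cell receptor alpha and delta genes (Tcra/Tcrd) of the mouse, and its chromatin contacts were compared between double-negative thymocytes (DN) and naive splenic B cells (B). The 4 libraries read from the INT1 viewpoint were taken from the 16 libraries of the series, as 2 replicates of each cell type, and the other 12 libraries were read from INT2, Ed or TEA. DN thymocytes lack CD4 and CD8 and came from litters of Rag2-/- mice on C57BL/6, aged 3 weeks, in which antigen receptor genes cannot be rearranged. B cells were naive splenocytes of wild type C57BL/6 mice, for which the labels repeat the thymocyte protocol. The isolation of the B cells was not given in the sources used here. Genotype and tissue therefore differ together with cell type. Pairs of values below are in the order of replicates 1 and 2.

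The assay was 4C-seq. Chromatin is crosslinked, cut with HindIII and ligated, cut again with DpnII and ligated, and an inverse PCR anchored on 1 fragment, called the viewpoint, recovers the fragments that lay next to it in the nucleus. The locus holds an array of Trav and Trdv segments, then the Trdd, Trdj and Trdc genes, and beyond them the Traj array and Trac, so that Tcrd lies inside Tcra. In DN thymocytes the Tcrd segments recombine first, and later the Trav segments join Traj segments, which deletes Tcrd. Ed (E-delta) is the enhancer of Tcrd. TEA, the T early alpha element, holds a germline promoter at the start of the Traj array. INT1 and INT2 are known as neighbouring elements between the V segments and the Trdd segments that bind CTCF, a protein that holds chromatin loops. The labels do not define them.

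The INT1 viewpoint was the HindIII fragment at chromosome 14, 54677060 to 54677623 (build mm9), which is 564 bp long. The INT2 fragment lay at 54680988 to 54683873, the Ed fragment at 54763263 to 54765182 and the TEA fragment at 54769627 to 54773311, all at higher coordinates. In the gene order of RefSeq (assembly GRCm38.p6, used for order only), 130 Trav genes precede Trdd1, and Trdd2, 2 Trdj genes, Trdc, Trdv5, 60 Traj genes, Trac and Dad1 follow it. Lower coordinates are accordingly called the Trav side of INT1 and higher coordinates the Trdc side. No annotation of mm9 was at hand, so positions carry no exon or intron.

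Mapped reads numbered 15046827 and 4846919 for DN, against 7191700 and 9546301 for B. On chromosome 14, outside the viewpoint and 1 fragment on each side, DN had 1975433 and 1122948 reads, against 582076 and 778794 for B. These are PCR reads without molecular identifiers, so they are not independent molecules. The reads fell on part of 26311 fragments, of which DN captured 6062 and 3498, against 6056 and 5219 for B. Across 505 fragments within 1 Mb, log2 values of the DN replicates correlated at Pearson r = 0.77 and those of the B replicates at r = 0.61, against 0.41 to 0.47 between cell types, as a description across fragments of these libraries. The file of DN replicate 2 carries a track named DN-B in its header, while its label says DN. Expression was not measured here, so the cell types were not checked against their markers. Each DN library came from a sequencing folder of its own and both B libraries from another, so folder and cell type cannot be told apart. Whether the replicates are separate animals is not in the labels, and p-values then measure the spread between these samples only.

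DN libraries kept more of their reads within 1 Mb of INT1 than B libraries did, though not within 10 kb. Chromosome 14 took 13.1% and 23.2% of all mapped reads in DN and 8.09% and 8.16% in B, while the viewpoint fragment itself took 14.1% and 21.7% in DN and 9.06% and 9.29% in B. The 2 DN libraries stood further apart from each other than the B libraries did. All further shares are shares of these chromosome 14 reads, which serve as library size, and they add up to the whole in each library. Within 1 Mb of INT1 lay 63.1% and 76.2% of them in DN and 40.3% and 39.5% in B. The distance that held 50% of the reads was 285 and 187 kb in DN and 7852 and 8470 kb in B. Beyond 2 Mb lay 33.6% and 18.9% in DN and 56.5% and 57.5% in B.

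The groups did not overlap in these shares. Each had p = 0.333 in a two-sided exact permutation test, the lowest value open to 2 against 2 samples. The read density of the other autosomes amounted to 26.5% and 11.5% of the chromosome 14 reads in DN and to 49.1% and 48.5% in B. With that density subtracted, the share within 1 Mb was 85.3% and 85.9% in DN and 77.5% and 75.2% in B, and the difference was 9.28 points in place of 29.8. The share within 100 kb was 34.6% and 36.1% in DN and 27.4% and 25.4% in B as deposited, and 47.1% and 40.7% against 53.5% and 49.1% after subtraction, so its direction turned.

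On the Trav side INT1 was in contact with a stretch of more than 1 Mb in DN that carried few reads in B. The largest differences were at 50 to 100 kb and at 100 to 200 kb. In the first of these ranges the share of reads was 4.00% and 6.00% in DN and 0.379% and 0.434% in B, a log2 difference of 3.59 (SE 0.38), or 12.1-fold. In the second it was 5.52% and 6.71% in DN and 0.436% and 0.696% in B, a difference of 3.47 (SE 0.39), or 11.0-fold. Nearer to INT1 the differences were smaller, with 2.0 (SE 0.39) within 10 kb, 1.14 (SE 0.37) at 10 to 25 kb and 1.88 (SE 0.38) at 25 to 50 kb. Further out the excess of DN shrank with distance. It was 2.53 (SE 0.41) at 200 to 500 kb, 2.0 (SE 0.39) at 500 kb to 1 Mb, where 3.34% and 4.08% of reads in DN stood against 0.791% and 1.08% in B, and 1.27 (SE 0.39) at 1 to 2 Mb.

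On the Trdc side DN also exceeded B from 10 to 200 kb, and its shares of chromosome 14 lay below those of B from 500 kb on, a direction that rests on the scaling. At 10 to 25 kb the share was 1.57% and 2.51% in DN and 0.97% and 1.06% in B (log2 difference 0.96, SE 0.38). The difference was 1.60 (SE 0.37) at 25 to 50 kb, 1.76 (SE 0.42) at 50 to 100 kb and 1.84 (SE 0.44) at 100 to 200 kb. This last range, which lies beyond the TEA fragment on the side of the Traj array, held 5.63% and 8.57% of reads in DN and 2.06% and 1.83% in B. At 200 to 500 kb the share was 6.39% and 9.55% in DN and 3.64% and 4.25% in B, with an adjusted p of 0.0512 in limma. At 500 kb to 1 Mb the order of the groups turned: 2.08% and 3.87% in DN stood against 5.06% and 5.01% in B (difference -0.83, SE 0.44), which did not pass the test either (limma, adjusted p = 0.0695). With library size over all chromosomes the differences at 500 kb to 1 Mb and 1 to 2 Mb were 0.43 and 0.48, and with each captured fragment counted once 0.38 and 0.42.

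**Figure D1:**
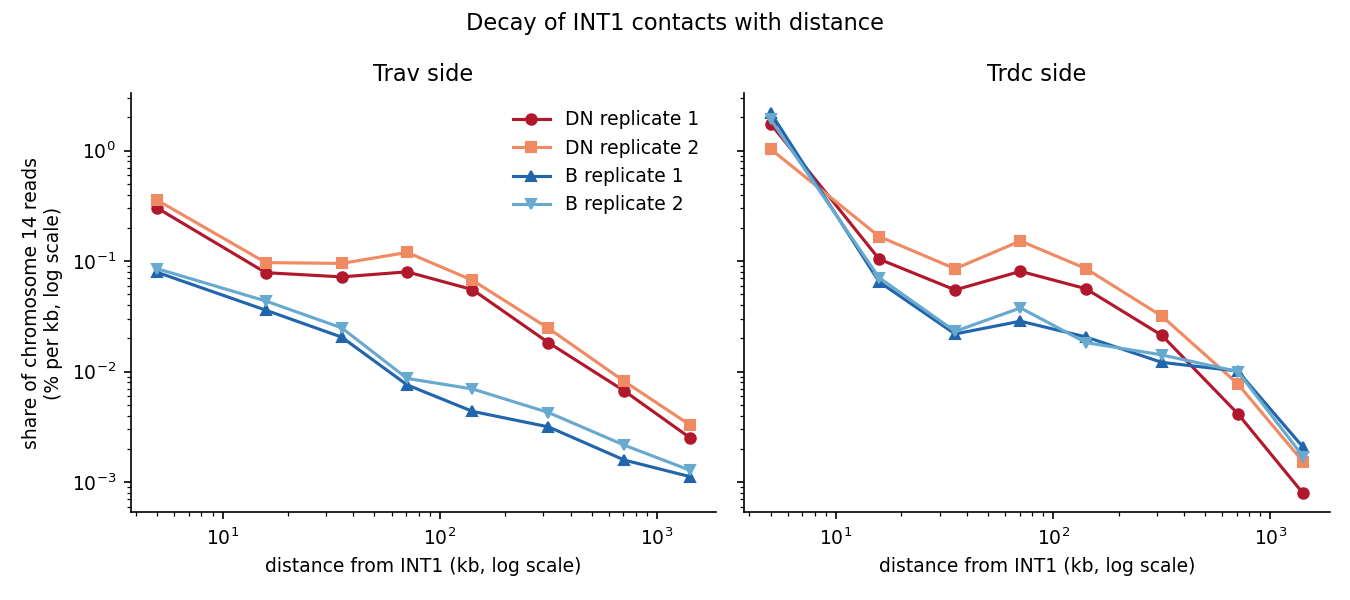
Share of chromosome 14 reads per kb of distance (log scale) against distance from INT1 (kb, log scale), for ranges up to 2 Mb on each side, with 1 line per library and each point at the middle of its range on the log scale. On the Trav side both DN lines lie above both B lines in every range, while on the Trdc side they lie below within 10 kb, above from 10 to 500 kb and below again from 500 kb on.

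Of 24 ranges on both sides, 12 were higher in DN (50%) and 6 lower (25%) at an adjusted p under 0.05 in limma. The 8 ranges of the Trav side up to 2 Mb and 4 on the Trdc side were higher, and the lower ones lay at 2 to 20 Mb on either side. The shares of chromosome 14 sum to 100%, so a higher share near INT1 goes with a lower one elsewhere, and with library size over all chromosomes 0 ranges were lower in DN. Without B replicate 1 the counts were 2 higher and 0 lower, and without B replicate 2 they were 3 and 0. Without DN replicate 1 they were 13 and 10, and without DN replicate 2 they were 12 and 11. limma pooled the spread over the ranges, which come from the same 4 libraries and are not independent. With the spread of each range alone, 0 ranges passed.

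How fast contacts fell with distance was described by the slope of log share per kb against log distance, over the ranges from 10 kb to 1 Mb. On the Trav side this exponent was -0.646 and -0.654 in DN and -0.827 and -0.781 in B, steeper in B over the span as a whole. On the Trdc side the order was the other way, with -0.745 and -0.729 in DN and -0.437 and -0.458 in B. The DN libraries thus had similar slopes on the 2 sides, while those of the B libraries were steeper on the Trav side. The exponents of the cell types did not overlap on either side (exact permutation p = 0.333 each, the smallest possible). A single exponent does not describe the Trav side well. There DN had 0.0787% and 0.0971% of reads per kb at 10 to 25 kb, 0.0552% and 0.0671% at 100 to 200 kb, and 0.00668% and 0.00816% at 500 kb to 1 Mb. B had 0.0360% and 0.0436%, then 0.00436% and 0.00696%, then 0.00158% and 0.00216%. B thus fell more between the first pair of these ranges, and DN fell more between the last pair.

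Windows of 100 kb showed where these excesses ended on the scale of chromosome 14 shares. On the Trav side the DN libraries both exceeded the B libraries in all 10 windows within 1 Mb and in the 4 windows from there to 1400 kb. The ratio of the group means was highest at 100 to 200 kb, at 10.8, fell to 3.97 at 400 to 500 kb, and stayed between 3.71 and 4.72 from there to 1100 kb. It was 2.31 at 1300 to 1400 kb. In the next window, 1400 to 1500 kb away, all 4 libraries were low, with 0.0229% and 0.0227% of reads in DN and 0.0258% and 0.0302% in B. Of the 6 windows from 1400 kb to 2 Mb, DN lay above B in 1, below in 1 and overlapped it in the rest. From 500 kb to 2 Mb the Trav-side values rest in part on repeated sequence, as given below.

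On the Trdc side DN lay above B in all 5 windows within 500 kb, by ratios of 2.97 within 100 kb, 3.65 at 100 to 200 kb and 1.92 to 2.22 from there to 500 kb. The groups overlapped at 500 to 600 kb. DN then lay below B in the 4 windows from 600 kb to 1 Mb, with the lowest ratio, 0.336, at 900 kb to 1 Mb, where 0.0996% and 0.242% of reads in DN stood against 0.585% and 0.432% in B. It lay below B in 6 of the 10 windows at 1 to 2 Mb and above B in 0 of them. These windows were not tested. With library size over all chromosomes the Trdc-side differences at 500 kb to 1 Mb and 1 to 2 Mb were 0.43 and 0.48. Where the order turned on this side therefore rests on the scaling.

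**Figure D2:**
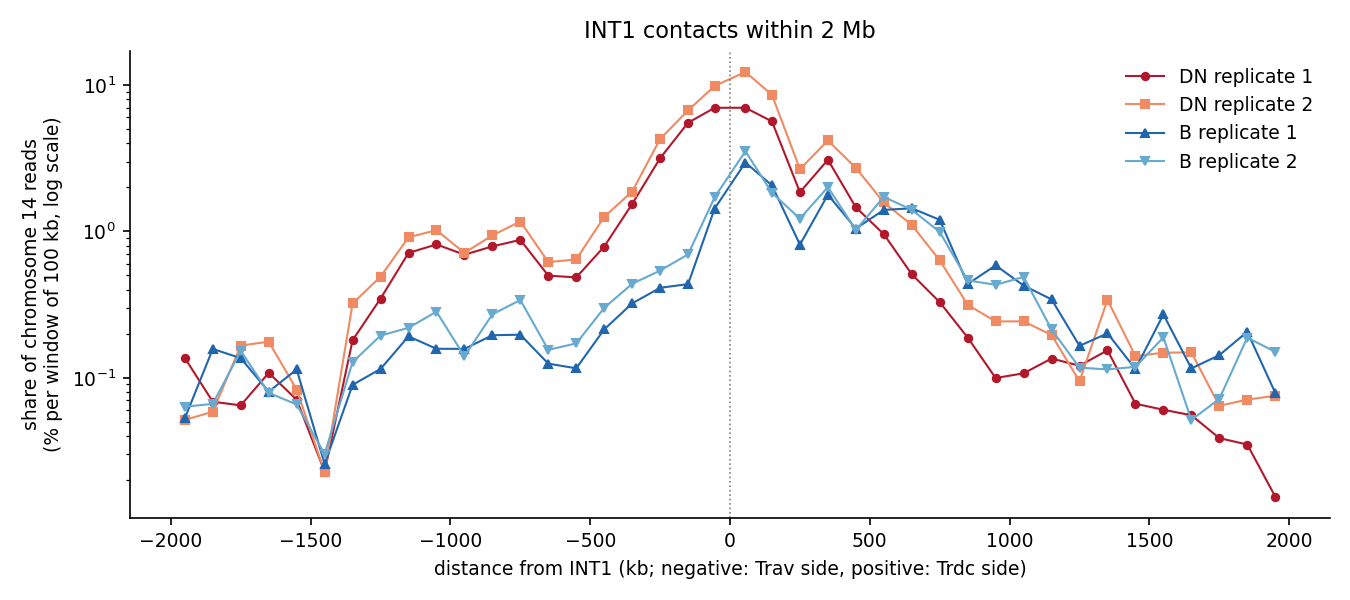
Share of chromosome 14 reads (%, log scale) in windows of 100 kb against distance from INT1 (kb), with the Trav side at negative and the Trdc side at positive distances and 1 line per library. The windows next to the viewpoint leave out the first 10 kb. The order of the groups beyond 500 kb on the Trdc side rests on the scaling to chromosome 14. The DN lines run above the B lines from 1400 kb on the Trav side to 500 kb on the Trdc side, fall below them from 600 kb to 1 Mb on the Trdc side, and meet them at the shared low window 1400 to 1500 kb away on the Trav side.

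The 2 sides of INT1 were then set against each other within each library, which does not use the library size. In DN the sides were nearly even, while in B the Trdc side held several times the reads of the Trav side. Between 10 kb and 1 Mb the Trav side took 21.3% and 28.0% of chromosome 14 reads in DN and 3.61% and 4.76% in B. The Trdc side took 21.1% and 34.3% in DN and 13.7% and 14.6% in B. The Trdc side thus held 0.989 and 1.22 times the reads of the Trav side in DN and 3.80 and 3.07 times in B. As log2 of Trav-side over Trdc-side reads this was 0.02 and -0.29 in DN and -1.93 and -1.62 in B, and the difference between the cell types was 1.64 (SE 0.30; limma, adjusted p = 3.93e-05).

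Between 10 and 50 kb the difference did not pass the test. At 10 to 25 kb the log2 ratio was -0.41 and -0.78 in DN and -0.85 and -0.70 in B, and the groups overlapped (difference 0.18, 95% interval -0.44 to 0.80). At 25 to 50 kb the ratio was 0.39 and 0.16 in DN and -0.10 and 0.11 in B (difference 0.27, interval -0.35 to 0.89). From 50 kb outwards the groups separated. At 50 to 100 kb the ratio was -0.02 and -0.34 in DN and -1.92 and -2.12 in B, a difference of 1.84. The difference was 1.63 at 100 to 200 kb and 1.54 at 200 to 500 kb. It was 2.83 at 500 kb to 1 Mb, where the Trdc side held 0.623 and 0.950 times the Trav-side reads in DN and 6.40 and 4.65 times in B. Each had an SE of 0.30, since limma gave all ranges 1 spread.

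Within 10 kb the Trdc side held 5.82 and 2.91 times the Trav-side reads in DN and 28.0 and 22.6 times in B, a difference of 2.61 on the log2 scale (SE 0.30). That stretch is dominated by the INT2 fragment, and the difference was 0.00 with each captured fragment counted once, as all fragments there had reads in every library. In all, 8 of 10 ratios were higher in DN (80%) and 0 lower at an adjusted p under 0.05. The 10 ratios include 3 wide ranges that overlap the others. With the spread of each range alone 5 passed. Without DN replicate 1 the count was 4 and the difference at 10 kb to 1 Mb was 1.48 (limma, adjusted p = 0.0538).

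**Figure D3:**
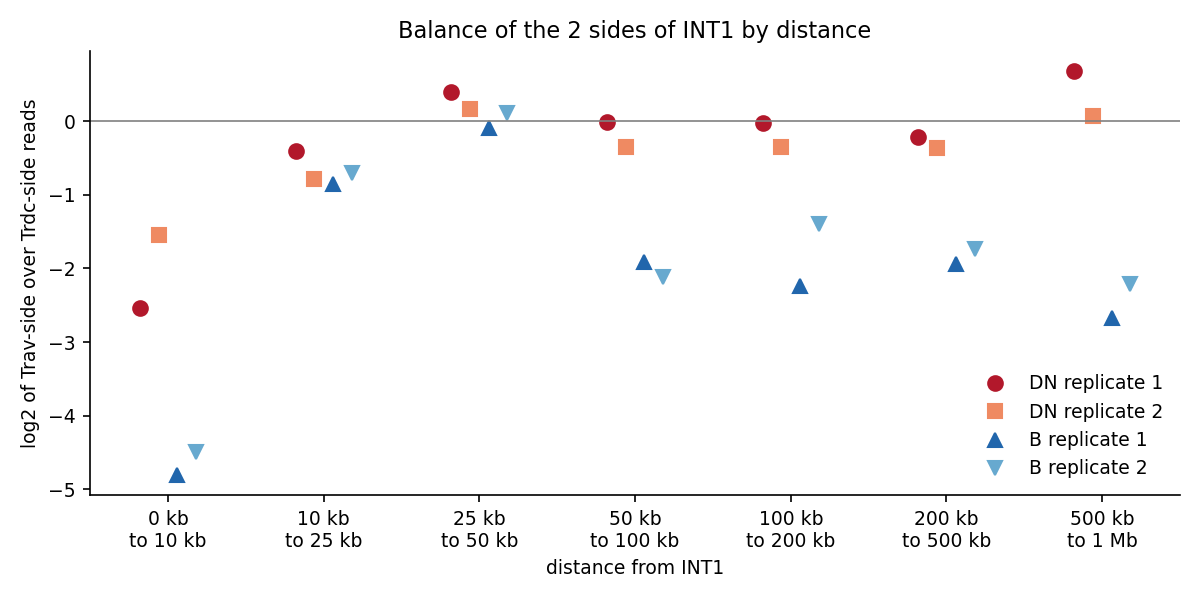
Log2 of Trav-side over Trdc-side reads in ranges of distance from INT1, with 1 point per library and a line at 0, where both sides hold the same number. At 50 kb and beyond the DN points lie between -0.37 and 0.68 and the B points between -2.68 and -1.40, while at 10 to 25 kb the groups overlap.

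The number of fragments with any reads showed the same split of the sides. Of 324 fragments between 10 kb and 1 Mb on the Trav side, 83.3% and 85.2% had reads in DN and 48.5% and 44.8% in B. Of 271 on the Trdc side, 86.7% and 94.1% had reads in DN and 83.8% and 82.7% in B. All libraries were then thinned to the 100806 reads that the shallowest had in this range. The Trav-side shares became 79.6% and 84.3% in DN and 48.5% and 44.4% in B, and the Trdc-side shares 84.1% and 93.4% against 83.8% and 82.3%. The thinning matched the total over both sides, and not the reads of the Trav side alone or the number of molecules.

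Reads that match several places can enter these values. On chromosome 14, 721 of the 26311 fragments had values identical to those of another fragment in all 16 libraries of the series, in sets of up to 9. On the Trav side they numbered 0 of 65 within 200 kb, 6 of 94 at 200 to 500 kb, 64 of 169 at 500 kb to 1 Mb and 65 of 303 at 1 to 2 Mb. On the Trdc side there were 0 within 2 Mb. They carried 45.4% to 59.0% of the Trav-side reads at 500 kb to 1 Mb and 41.6% to 60.0% at 1 to 2 Mb, across the 4 libraries. With each such value divided by the number of its copies, the difference in side ratio was 2.89 at 500 kb to 1 Mb and 1.67 at 10 kb to 1 Mb.

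Chromosome 14 was next divided into 12 stretches around INT1, named for the segments and genes they are taken to hold. The largest log2 difference lay over the V segments nearest to INT1. The stretch of proximal Trav segments (53.8 to 54.66 Mb) held 19.4% and 25.8% of reads in DN and 2.95% and 3.98% in B, a log2 difference of 2.71 (SE 0.36) or 6.52-fold (limma, adjusted p = 1.18e-06). The distal Trav segments (53 to 53.8 Mb) held 3.31% and 4.20% in DN and 0.994% and 1.25% in B, a difference of 1.74 (SE 0.36). The flank between the proximal Trav segments and INT1 held 3.93% and 4.66% in DN and 1.24% and 1.36% in B (1.72, SE 0.34). The groups did not overlap in any of the 3.

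Beyond the Trav array the order turned. The stretch that precedes it on the centromere side (49.7 to 53 Mb), called here the olfactory receptor side, held 1.14% and 0.813% of reads in DN and 2.23% and 1.80% in B, with an adjusted p of 0.0508 in limma (difference -1.06, SE 0.45). With library size over all chromosomes this difference was 0.20, so its direction rests on the scaling.

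Towards the constant genes DN also exceeded B from Ed to Dad1. The stretch from Ed to TEA, taken to hold Trdc, had 1.48% and 2.98% of reads in DN and 0.561% and 0.510% in B, a log2 difference of 1.97 (SE 0.53) or 3.92-fold. From TEA through the Traj array and Trac to Dad1, a ubiquitously expressed gene next to the Tcra enhancer, the share was 5.95% and 9.28% in DN and 2.17% and 2.07% in B (1.81, SE 0.29). Between INT2 and Ed, the stretch of the Trdd and Trdj segments, it was 9.73% and 12.4% in DN and 5.96% and 6.60% in B. This difference of 0.81 (SE 0.35) had an adjusted p of 0.0508 in limma. The sizes of these differences were not tested against each other.

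Past Dad1 the 100 kb windows went both ways as shares of chromosome 14, with DN above B to 500 kb and below B from 600 kb to 1 Mb from INT1. The next stretch (54.88 to 55.8 Mb) held 8.46% and 13.6% in DN and 9.17% and 9.72% in B, so the groups overlapped (0.18, 95% interval -0.63 to 1.0). The gene-dense stretch after it, to 57 Mb, held 0.861% and 1.42% in DN and 1.86% and 1.39% in B (-0.54, interval -1.49 to 0.41). Of the 12 stretches 5 were higher in DN (41.7%) and 0 lower at an adjusted p under 0.05 in limma. Without either B replicate 0 passed in either direction. Without DN replicate 1 the counts were 7 higher and 4 lower, without DN replicate 2 they were 6 and 4, and with the spread of each stretch alone they were 0 and 0.

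**Figure D4:**
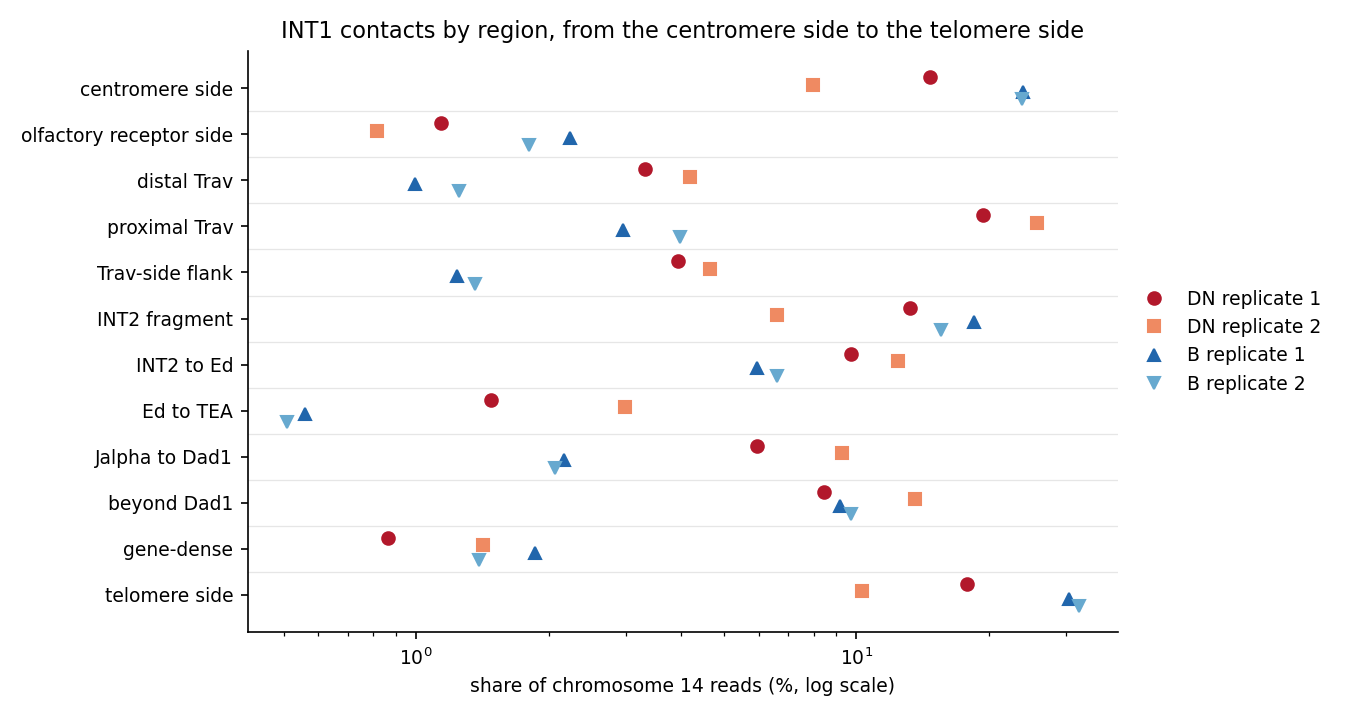
Share of chromosome 14 reads (%, log scale) in the 12 stretches around INT1, listed from the centromere side to the telomere side, with 1 point per library. DN points lie to the right of B points from the distal Trav stretch to the flank and from the INT2 to Ed stretch to Dad1, and to the left at both ends of the chromosome and for the INT2 stretch.

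Outside the fragments left out, the strongest single contact of INT1 in every library was the INT2 fragment. It lay 4.81 kb from the nearer edge of the viewpoint to its centre, as all fragment distances are given here. It is the first fragment kept on the Trdc side, directly after the neighbour left out, and the part of closeness in its reads was not tested. The INT2 fragment held 13.2% and 6.61% of chromosome 14 reads in DN and 18.5% and 15.5% in B. The share was thus lower in both DN libraries, but the difference of -0.86 (SE 0.47) did not pass the test (limma, adjusted p = 0.105). On the scale of all mapped reads the order was the other way, with 17358 and 15318 RPM (reads scaled to the mapped reads of the library, as deposited) in DN and 14970 and 12684 RPM in B. The relative weight of this contact therefore depends on whether it is read against chromosome 14 or against the whole library. Read from the other end, the INT1 fragment took 638 and 1894 RPM in the INT2 libraries of DN and 412 and 220 RPM in those of B, far below the values from INT1.

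INT1 also reached the other 2 viewpoints of the series in both cell types, with more reads in DN. The TEA fragment, 93.8 kb away, had 633 and 2266 RPM in DN and 232 and 230 RPM in B, which is 0.482% and 0.978% of chromosome 14 reads against 0.287% and 0.281% (log2 difference 1.27, SE 0.44; limma, adjusted p = 0.0982). The Ed fragment, 86.6 kb away, had 387 and 1055 RPM in DN and 86.2 and 54.1 RPM in B (2.11, SE 0.51; limma, adjusted p = 0.0607). For each fragment the lower DN library exceeded the higher B library, and DN replicate 2 was well above DN replicate 1 for each. Both fragments lie in the Trdc-side range of 50 to 100 kb, which as a whole differed by 1.76 (SE 0.42). Whether they differed by more than that range was not tested. In the reverse direction TEA recovered the INT1 fragment with 361 and 1839 RPM in DN and 194 and 63.6 RPM in B. Ed recovered it in 1 of its 4 libraries, DN replicate 2, with 424 RPM.

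Of the 8 fragments with the highest mean share in DN between 10 kb and 1 Mb, 5 lay on the Trav side, while in B 7 of the 8 highest lay on the Trdc side. The lists had 4 fragments in common. Those shared by both cell types were near INT1 or at TEA. The highest common fragment on the Trav side, 54662192 to 54668467, had 0.880% and 1.01% of reads in DN and 0.437% and 0.496% in B (1.01, SE 0.29). The highest on the Trdc side, 54688077 to 54690201, took 0.692% and 1.21% in DN and 0.404% and 0.249% in B (1.53, SE 0.44). For the third, 54706512 to 54721932, the difference was 0.66 (SE 0.33), with DN above B, and the fourth is the TEA fragment.

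Ranking high in DN alone were 4 fragments of the Trav side, of which 3 had log2 differences above 3. They were picked for a high rank in DN and not in B, so part of the difference is built in. The median log2 difference of tested Trav-side fragments was 2.84 within 100 kb and 3.38 at 100 to 500 kb. The fragment 54574479 to 54576656, 101.5 kb from INT1, took 0.809% and 0.761% in DN and 0.0421% and 0.0699% in B (3.83, SE 0.46; limma, adjusted p = 0.0547). The fragment 54617134 to 54620565, 58.2 kb away, took 0.709% and 0.565% in DN and 0.0479% and 0.0528% in B (3.63, SE 0.43). At 147 kb the fragment 54527060 to 54532525 took 0.684% and 0.546% in DN and 0.108% and 0.0167% in B (3.80, SE 0.93). Each of these had more than 5 times the share in the lower DN library that it had in the higher B library. Nearer to INT1, the fragment 54624517 to 54641354 took 0.758% and 0.608% in DN and 0.269% and 0.153% in B (1.74, SE 0.42).

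Ranking high in B alone were 4 fragments of the Trdc side, with log2 differences from 0.10 to 1.0. The fragment 54693468 to 54699805, 19.0 kb away, took 0.304% and 0.444% in DN and 0.288% and 0.407% in B, and the groups overlapped (0.10, SE 0.40). The fragment 54741524 to 54748874 took 0.452% and 0.542% in DN and 0.305% and 0.403% in B (0.50, SE 0.35). For 54690208 to 54693461 the difference was 1.0 (SE 0.40), with DN above B. The most distant, 55064222 to 55071476, lay 390 kb from INT1, past Dad1, and took 0.228% and 0.398% in B and 0.587% and 0.491% in DN (0.83, SE 0.41).

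No single fragment passed the test across all fragments. Of the 601 fragments within 1 Mb, 505 passed the filter on low values and were tested, and 0 were higher and 0 lower in DN at an adjusted p under 0.05 in limma (0%). The smallest adjusted p was 0.0547, and 200 fragments had an unadjusted p under 0.05. With edgeR on whole reads 0 passed and 143 had an unadjusted p under 0.05. Other settings made between 0 and 164 calls of higher fragments and between 0 and 7 of lower ones. Without DN replicate 1, DN replicate 2 and B replicate 2 the calls of higher fragments were 71, 68 and 56, and without B replicate 1 they were 0.

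Counted without a test, the DN libraries both exceeded the B libraries in 309 of the 601 fragments (51.4%) and lay below them in 51 (8.49%). The Trav side within 100 kb had 31 of 35 fragments above and 0 below. It had 92 of 124 above at 100 to 500 kb and 75 of 169 above, with 5 below, at 500 kb to 1 Mb. The Trdc side had 28 of 34 above within 100 kb and 71 of 110 above at 100 to 500 kb, but 12 of 129 above and 42 below at 500 kb to 1 Mb. In both B libraries 123 of 328 Trav-side fragments had no reads, against 23 of 273 on the Trdc side. The median log2 difference of the tested fragments was 2.04 as scaled here and 0.96 with TMM factors, which centre the fragments on each other.

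Single-fragment peaks were sought between 10 kb and 1 Mb, by a rule to be met in both libraries of a cell type. A peak had at least 5 times the mean of its 20 neighbours on each side. It was also the highest of the 5 fragments centred on it. Of 595 fragments, 2 were peaks in DN and 4 in B, and 0 were peaks in both. At 10 times the neighbours 0 were left in either. Both DN peaks, 53794241 to 53797144 and 54179592 to 54193190, lay on the Trav side and had the same values in every library, 0.172% and 0.192% of reads in DN and 0.0161% and 0 in B, and they belong to the identical fragments described above. A value of 0 in B replicate 2 allows up to 3 reads, or 0.000385% of chromosome 14 reads, which covers counting error only.

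Of the B peaks 2 lay on the Trav side. The fragment 54008378 to 54015348 had 0.0450% and 0.0375% of reads in B and 0.000861% and 0 in DN, and the fragment 54061400 to 54065202 had 0.0170% and 0.0173% in B and 0.0173% and 0.0142% in DN, where its neighbours were higher. The other 2 lay on the Trdc side, 885 and 946 kb away. The fragment 55556415 to 55567910 had 0.118% and 0.128% in B and 0.0149% and 0.00650% in DN. The fragment 55618512 to 55628453 had 0.114% and 0.103% in B and 0.0195% and 0.00757% in DN. In a single library 5 to 23 fragments met the rule, most of them in B, so most peaks of 1 library were not found in its replicate.

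Far along chromosome 14 no window passed the test. Beyond 2 Mb the DN libraries had reads on 5297 and 2680 fragments and the B libraries on 5469 and 4672. Thinned to 212685 reads each, these were 4628 and 2680 in DN and 5313 and 4393 in B. Captured fragments were counted in windows of 1 Mb, as a share of all fragments captured beyond 2 Mb. Of 119 windows tested, 0 were higher and 0 lower in DN at an adjusted p under 0.05 in limma (0%), the smallest being 0.770, and 6 had an unadjusted p under 0.05. With reads thinned 0 passed and 9 had an unadjusted p under 0.05, and with capped reads 0 and 4. The window with the smallest p lay at 29 to 30 Mb, with 0.529% and 0.597% of captured fragments in DN and 0.933% and 0.835% in B (log2 difference -0.63, SE 0.19).

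INT1 was set against INT2, its neighbour, whose 4 libraries carry the same cell types and replicate numbers. Near the viewpoints the neighbours differed in DN. From INT2 the log2 ratio of Trav-side to Trdc-side reads at 10 to 50 kb was -3.35 and -2.49 in DN and -1.93 and -0.66 in B, while from INT1 it was 0.02 and -0.27 in DN and -0.53 and -0.36 in B. At 50 to 100 kb it was -2.99 and -2.55 in DN and -3.14 and -2.05 in B from INT2, against -0.02 and -0.34 in DN and -1.92 and -2.12 in B from INT1. INT2 was thus turned to the Trdc side at these distances in both cell types, and at 50 to 100 kb its DN and B values overlapped. In DN, INT1 was near even at both distances.

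From B to DN the log2 ratio changed by 0.32 from INT1 and by -1.63 from INT2 at 10 to 50 kb, in opposite directions. At 50 to 100 kb it changed by 1.84 from INT1 and by -0.17 from INT2. The INT1 change minus the INT2 change was 1.95 at 10 to 50 kb and 2.01 at 50 to 100 kb (SE 0.62 each). For each, limma on INT1 minus INT2 within each cell type and replicate number gave an adjusted p = 0.0257. Beyond 100 kb the change was alike in sign for both viewpoints, at 1.63, 1.54 and 2.83 from INT1 and 1.43, 2.18 and 2.71 from INT2. The differences between the viewpoints there were 0.20 (95% interval -1.18 to 1.58) at 100 to 200 kb, -0.64 (-2.01 to 0.74) at 200 to 500 kb and 0.12 (-1.26 to 1.49) at 500 kb to 1 Mb. In all, 2 of 5 ranges passed (40%). With each captured fragment counted once, with the spread of each range alone, and without DN replicate 1, DN replicate 2 or B replicate 2, 0 passed. Counted once, the 2 differences turned to -0.16 and -0.077. From INT1, all Trav-side fragments at 25 to 50 kb and all Trdc-side ones at 10 to 25 kb had reads in every library. Counting once can therefore show little of a change in reads at 10 to 50 kb.

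**Figure D5:**
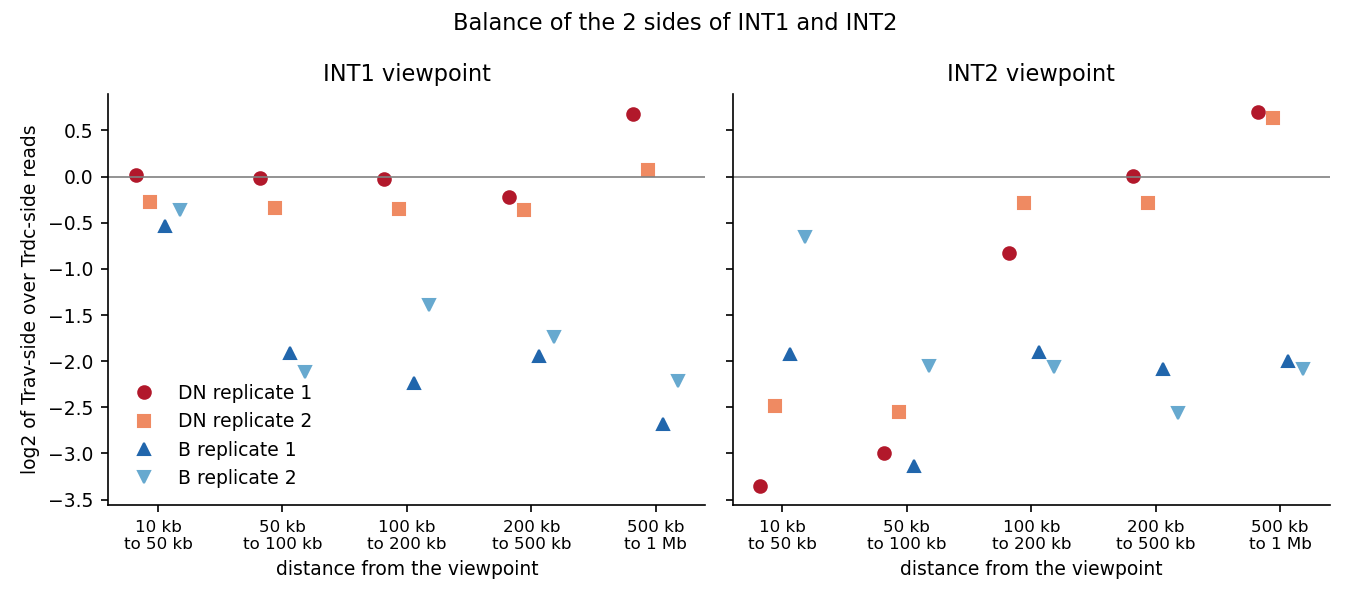
Log2 of Trav-side over Trdc-side reads in 5 ranges of distance from the INT1 viewpoint (left) and from the INT2 viewpoint (right), with 1 point per library and a line at 0. Within 100 kb the DN points lie near 0 from INT1 and between -3.35 and -2.49 from INT2, and at 200 kb to 1 Mb the DN points lie above the B points from both.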

How the data were processed

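The 4 INT1 libraries were analysed, with the 4 of INT2 for 1 comparison. The deposited files give reads per HindIII fragment as RPM, scaled to mapped reads by the authors, and a fragment not listed is taken as 0. CASAVA, Bowtie and mm9 are named without versions, per the submitters' processing notes, and fragments were padded by 40 bp, per the file headers. In each INT1 library 100% of values were whole multiples of 1 read within 0.01 read.

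The INT1 fragment and its neighbour on either side were left out, and sums were divided by the remaining chromosome 14 total. limma 3.58.1 (R 4.3.3) compared 2 DN with 2 B libraries, two-sided, on log2 of parts per 1000000 with a pseudocount of 1 for sums and 10 for fragments, which understates folds of low values. Fits had a mean-variance trend except for ratios and far windows. Adjusted p is Benjamini-Hochberg over the features of a comparison. Fragments were tested at a mean of at least 20 parts and reads in at least 2 libraries, and far windows at a mean of at least 10 captured fragments, with an offset of 0.5. Alternatives used edgeR 4.0.16 on recovered reads, other scalings, caps and left-out libraries. Only the fits of single fragments and of far windows were run on simulated data, with independent features. The fits of ranges, ratios, stretches and the comparison with INT2 were not.

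Members, ranges, stretches and lists were chosen with earlier results of these data known. Named were every range, ratio and stretch, fragments and windows past the test where any passed, the viewpoint and peak fragments, and the 8 highest fragments of each cell type. The far window with the smallest p was added after its values were seen.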

Additional observations from a re-analysis of the deposited data

Results flagged for a closer look

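Ratios of Trav-side to Trdc-side reads changed between cell types by unlike amounts from INT1 and from INT2, by the test of that difference within each cell type and replicate number. From B to DN the INT1 change minus the INT2 change was 1.95 on the log2 scale at 10 to 50 kb and 2.01 at 50 to 100 kb (limma, adjusted p = 0.0257 each). The changes were 0.32 from INT1 and -1.63 from INT2 in the nearer range, and 1.84 and -0.17 in the further one. INT1 minus INT2 was 3.38 and 2.21 in DN and 1.39 and 0.30 in B in the nearer range, and 2.98 and 2.20 in DN and 1.22 and -0.07 in B in the further one, so the groups did not overlap in either. With each captured fragment counted once the differences turned to -0.16 and -0.077. At 10 to 50 kb from INT1 most fragments had reads in every library, so that count can show little of a change in reads there. With the spread of each range alone, and without DN replicate 1, DN replicate 2 or B replicate 2, 0 of the 5 ranges passed.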

How the results depend on the processing

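The 10 kb to 1 Mb side ratio kept its direction in all 11 alternatives, with log2 differences from 0.74 to 1.79. Its value without DN replicate 1 is given above. In most of them the direction could not turn. The fits with a trend, the replicate block or the spread of each range alone use the same ratios. Leaving out 1 library cannot reverse groups that do not overlap. The direction was open with fragments counted once or capped, background subtracted, or identical fragments shared out. The 50 to 100 kb and 200 to 500 kb ratios passed in all 11. Causes of the changes below were not tested, except that fewer libraries leave fewer values. Of the fragments listed beyond 2 Mb, DN replicate 2 captured 10.7%, and the other libraries 17.5% to 21.1% when thinned to its 212685 reads there.

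With library size over all chromosomes 0 distance ranges were lower in DN, and differences turned to 0.069, 0.098 and 0.126 at 5 to 10 Mb, 10 to 20 Mb and beyond 20 Mb on the Trav side. On the Trdc side they turned to 0.64 within 10 kb, 0.43 at 500 kb to 1 Mb, 0.48 at 1 to 2 Mb, 0.41 at 2 to 5 Mb and 0.065 beyond 20 Mb. Lower ranges numbered 10 with library size within 1 Mb, 10 in excess of the other chromosomes (added after seeing the data) and 10 without the trend. With fragments counted once 2 were higher and 0 lower, and the Trdc-side differences within 10 kb, at 500 kb to 1 Mb, 1 to 2 Mb and 2 to 5 Mb were 0.29, 0.38, 0.42 and 0.12. With capped fragments the Trdc side within 10 kb was 1.17. That range holds 2 fragments, INT2 among them, with reads in every library. Counting once leaves out their read numbers, and capping limits them. With the spread of each range alone, added after seeing the data, 0 were higher and 0 lower among ranges and stretches alike, and 5 ratios and 0 of the comparisons with INT2 passed. Without 1 library 2 to 13 ranges were higher and 0 to 11 lower.

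Among stretches, library size over all chromosomes turned the centromere side to 0.12, the olfactory receptor side to 0.20, the INT2 fragment to 0.40, the gene-dense stretch to 0.72 and the telomere side to 0.054. The stretch past Dad1 turned to -0.61 with library size within 1 Mb, -0.0017 with TMM factors, -0.47 in excess of other chromosomes and -0.16 without DN replicate 2 (0.53 without DN replicate 1). The INT2 fragment was 1.17 with capped fragments and 0.29 counted once. It is 1 fragment, the strongest in every library, so neither value holds its own read numbers. Counted once, the olfactory receptor side was 0.039 and the gene-dense stretch 0.52, and 2 stretches were higher. Lower stretches numbered 4 with library size within 1 Mb, 4 in excess of other chromosomes, 4 without the trend, 3 with capped fragments, and 1 each with TMM factors, the replicate block, library size without INT2 and the next fragment, and identical fragments shared out (the last and the third added after seeing the data). Without 1 library 0 to 7 stretches were higher and 0 to 4 lower.

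Higher and lower fragments numbered 164 and 1 with library size over all chromosomes, 106 and 4 with capped fragments, 27 and 2 without the trend, and 114 and 5 with a pseudocount 10 times as large. Without 1 library 0 to 71 were higher. Fragments starting at 54693468, 54706512 and 54741524 turned to -0.69, -0.14 and -0.30 with library size within 1 Mb, and to -1.07, -0.51 and -0.67 with TMM factors. TMM factors also turned 54662192 to -0.16, 54690208 to -0.17 and 55064222 to -0.34. In excess of other chromosomes 54693468 was -0.55 and 54741524 -0.16. The fragment 54693468 was -0.014 without INT2 and the next fragment in the library size, and ranged from -0.17 (without DN replicate 2) to 0.37 (without DN replicate 1) with 1 library left out, at -0.15 without B replicate 1.

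The side ratio at 25 to 50 kb was -0.40 counted once and -0.35 capped, and at 10 to 25 kb -0.0075 without DN replicate 1 and 0.37 without DN replicate 2. Without 1 library 4 to 7 ratios passed, and the 10 kb to 1 Mb difference was 1.48 to 1.79. Counted once, INT1 against INT2 was -0.16 at 10 to 50 kb, -0.077 at 50 to 100 kb, -0.42 at 100 to 200 kb and -0.066 at 500 kb to 1 Mb, with 0 passing. Without 1 library 0 to 2 passed, and the 100 to 200 kb and 500 kb to 1 Mb values were -0.23 and -0.16 without DN replicate 1 and -0.30 and -0.16 without B replicate 1, and 0.70 and 0.39 without B replicate 2.

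The difference in the share within 1 Mb was 39.6 points without 10 kb on each side, 9.28 with background subtracted and 40.2 without INT2 and the next fragment (added after seeing the data), and within 100 kb it was -7.41 with background subtracted. The Trav-side exponent then differed by 0.207 in place of 0.153. At 10 times the neighbours peaks numbered 0 in DN and 0 in B.

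Replicate numbers are shared by DN and B without a label that pairs them. Deviations from the group means correlated at 0.313 over 24 ranges, 0.0826 over 505 fragments and -0.15 over 119 far windows. With the replicate block 111 fragments were higher and 7 lower, 1 stretch was lower, and the 10 kb to 1 Mb ratio stayed at 1.64. In that fit 11 ranges were higher and 4 lower, 5 stretches and 8 ratios were higher, and 0 far windows and 2 comparisons with INT2 passed.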
